A study of Vitis vinifera with 12 samples.

Results

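The gene models described here are those whose transcript level fell steeply in grape berries between 40 and 50 days after full bloom and then changed little up to 80 days. They were chosen by measured values in all 12 libraries of the study, on the scale log2(FPKM + 1). FPKM is a fragment count normalised to gene length and library size. A member had a mean of at least 5 FPKM at 40 days and a mean log2 level at least 1.5 lower at 50 days. Every 50-day library lay below every 40-day library, and the mean steps from 50 to 60 and from 60 to 80 days each stayed within 0.5 in either direction. The rule selected 58 of the 22580 gene models in the table. The fall and the level course are therefore what selected these gene models, and are given as a description without a test.

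All samples were fruit of the grapevine (Vitis vinifera) cultivar Flame Seedless, a table grape whose berries turn red. They were collected at 40, 50, 60 and 80 days after full bloom, 3 libraries per age, lettered a, b and c. No treatment or genotype differed between the ages. Per the labels' protocols, RNA from each biological replicate was prepared on its own before pooling, so the variation among libraries that p-values rest on may be technical only. In such bulk samples fewer cells of a type and less RNA per cell cannot be told apart. Depth is unknown because the table holds no read counts. The summed FPKM per library ranged from 971004 to 1212608, and 13166 to 14326 gene models reached 1 FPKM.

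A grape berry first grows by cell division and cell enlargement while it is green and hard and stores organic acids and tannins. After a pause in growth it enters ripening, when it softens, takes up sugar and, in red cultivars, forms anthocyanins in the skin. Transcripts made for early growth commonly decline before ripening starts. The table names gene models by identifier only, and none of its identifiers (0 of 22580) matched any of the 29591 RefSeq genes (assembly ASM3070453v1), so no product, role, sequence or coordinate is attached to any member. The tissue could not be checked against marker genes for the same reason.

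The members' transcripts together lost most of their starting level in the first interval and then held a steady sum. Their summed level was 1674, 2324 and 2532 FPKM in 40-day replicates a, b and c. At 50 days the same sum was 571.6, 459.1 and 459.9 FPKM. Every later library lay in the same narrow range, with 494.5, 462.8 and 542.6 FPKM at 60 days, then 541.4, 508.9 and 460.6 FPKM at 80 days. The mean sum was 2177 ± 448 FPKM (SD, n = 3) at 40 days and 496.9 ± 64.7 FPKM at 50 days. It was 500.0 ± 40.2 FPKM at 60 days and 503.6 ± 40.7 FPKM at 80 days. The members held 0.212% ± 0.0451 of all FPKM in a library at 40 days and 0.0457% ± 0.00700 at 50 days. The sum is carried by few gene models, since the 5 most abundant members held 49.9% of it at 40 days and the most abundant alone 20.5%.

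**Figure D1:**
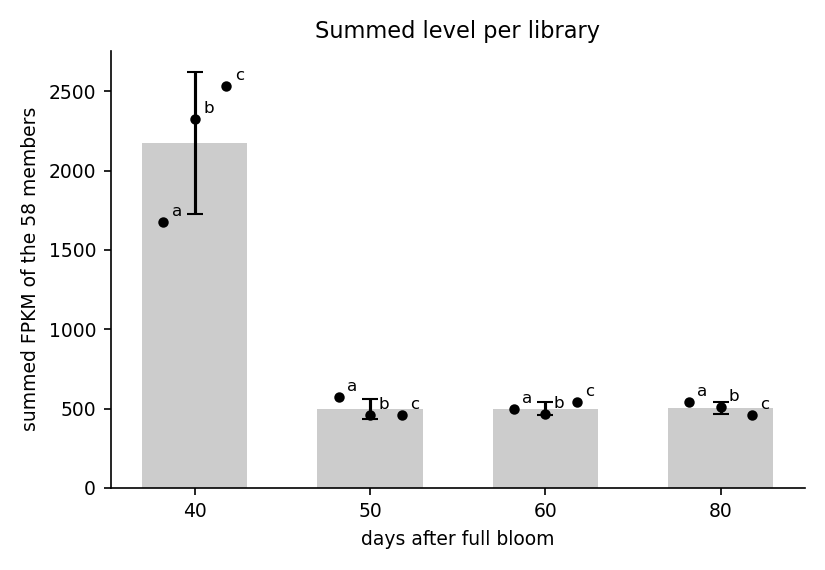
Summed FPKM of the 58 members (y axis) by age in days after full bloom (x axis). Bars are means of 3 libraries, error bars 1 SD, and points the libraries a, b and c. The 40-day libraries lie between 1674 and 2532 FPKM and the 9 later libraries between 459.1 and 571.6 FPKM.

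The typical member was weakly to moderately expressed and stood at 1.21 to 2.95 FPKM after its fall. Its median level per library was 9.23, 16.6 and 16.5 FPKM at 40 days (replicates a, b and c) and 2.95, 1.93 and 1.70 FPKM at 50 days. At 60 days it was 1.72, 1.57 and 2.25 FPKM, and at 80 days 1.22, 1.67 and 1.21 FPKM. The median thus went on down a little while the sum did not. Between 10 and 22 of the 58 members were under 1 FPKM in a 50-day library, and 22 to 26 in an 80-day library. At 40 days, 19 members had a mean under 10 FPKM, 20 had at least 20 FPKM and 5 at least 100 FPKM. The median log2 step from 40 to 50 days was -1.91, with members from -3.70 to -1.51. The median over all 14579 gene models tested was -0.025. The mean FPKM at 40 days was 3.02 to 285 times that at 50 days, with a median ratio of 5.30. The ratio of 285 belongs to VIT_05s0020g01700 and rests on 1 library at 40 days and a 50-day mean of 0.0318 FPKM, and the next highest was 116 (VIT_04s0008g05640).

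**Figure D2:**
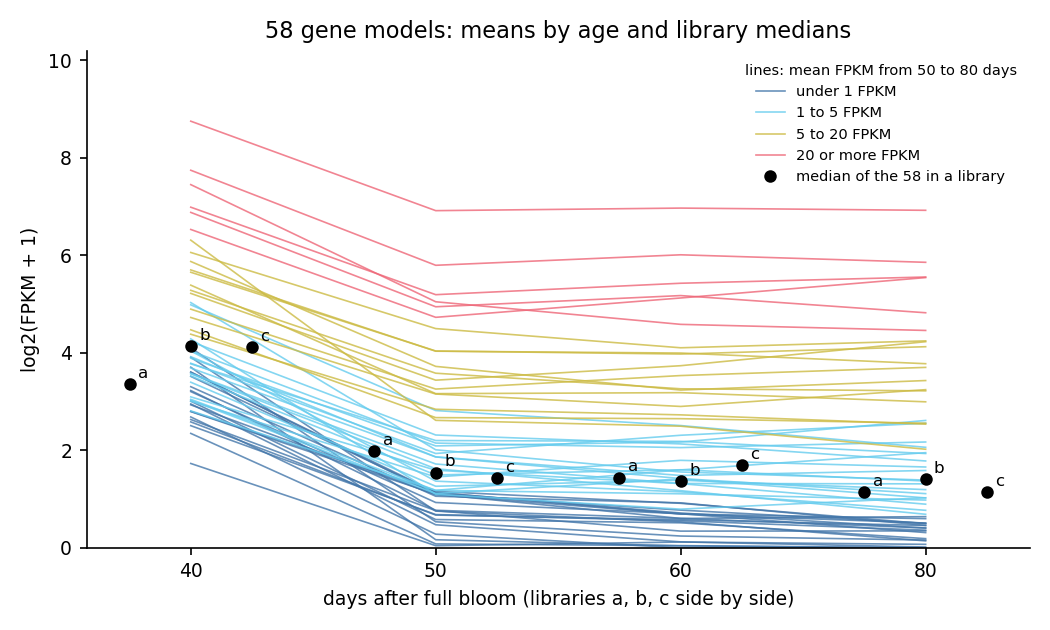
Level as log2(FPKM + 1) (y axis) at 4 ages, drawn at even spacing (x axis). Each line joins the age means of 1 of the 58 members, coloured by its mean FPKM over the 9 libraries from 50 to 80 days, and black points are the median of the members in libraries a, b and c. The lines fall together to 50 days and then run nearly level, and the 40-day median of replicate a lies below those of b and c.

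A limma model with 1 mean for each age, fitted to all 14579 gene models with at least 1 FPKM in at least 3 libraries, tested 57 of the 58 members. All 57 were called lower at 50 than at 40 days (limma, Benjamini-Hochberg adjusted p under 0.05 and a difference of at least 1), against 5.93% of all gene models tested. At 80 days 55 members were called lower than at 40 days, against 14.0% of all. Because the rule used these contrasts, nothing is read from either count. The member without a test, VIT_05s0020g01700, stood at 0.117, 26.9 and 0.176 FPKM in 40-day replicates a, b and c. It was listed at 0, 0 and 0.0953 FPKM at 50 days and at no more than 0.179 FPKM in any later library. Its place among the members rests on 40-day replicate b alone. Apart from it and VIT_01s0011g00830, every member was higher in each 40-day library than in each 60- and 80-day library (56 of 58), which the rule nearly fixes. Of the gene models that fell early but later left the bounds, the same held in 228 of 229 that fell further. It held in 11 of 29 that rose back and in 29 of 38 that moved in both directions, so it is not particular to the members. No share over all gene models was taken, and nothing further is read from these counts. VIT_05s0020g01700 was named after its values were seen.

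The level at which members settled divided them into 4 classes by their mean FPKM over the 9 libraries from 50 to 80 days. The class of 20 FPKM or more held 6 members, 5 to 20 FPKM held 12, 1 to 5 FPKM held 20 and under 1 FPKM held 20. The 6 highest members kept 14.9% to 37.1% of their 40-day FPKM (median 27.5%), and their step to 50 days lay between -2.40 and -1.80. The 20 lowest kept 0.355% to 14.7% (median 6.77%), with steps between -3.54 and -1.64. The classes between them kept 6.85% to 39.1% (5 to 20 FPKM) and 3.70% to 31.5% (1 to 5 FPKM), so the ranges of neighbouring classes overlapped. The classes were cut on the level that the share is taken from, so a lower share in the lower classes follows in part from the cut.

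VIT_07s0129g00490 was the most abundant member throughout. It measured 320.3, 409.2 and 610.2 FPKM in 40-day replicates a, b and c, and 140.2, 115.5 and 106.7 FPKM at 50 days. It then stood at 139.4, 103.8 and 133.3 FPKM at 60 days and 166.5, 102.9 and 102.3 FPKM at 80 days. The 40-day values spread widely but lay above all later ones, and the later values overlapped between ages. Its log2 steps were -1.83 ± 0.245 (SE from limma), 0.05 and -0.05 in order, which also made it 1 of the 2 flattest members after 50 days. VIT_06s0004g05020, the next in level, showed the tightest fall of the pair. Its 40-day libraries gave 186.4, 226.3 and 232.2 FPKM and its 50-day libraries 52.7, 54.3 and 57.1 FPKM, a step of -1.95 ± 0.143. It remained between 47.5 and 74.8 FPKM in the 6 later libraries. The 3 members of this class that are not named here had means of 119 to 178 FPKM at 40 days, which became 30.1 to 35.6 FPKM at 50 days. Their 80-day means were between 23.1 and 46.3 FPKM.

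The steepest fall on the log2 scale was that of VIT_02s0025g02500. Its 40-day values were 47.4, 121 and 84.6 FPKM, and its 50-day values 15.4, 3.10 and 2.44 FPKM. Later it was uneven, with 2.23, 3.01 and 12.9 FPKM at 60 days and 1.18, 9.86 and 1.84 FPKM at 80 days. The step of -3.70 had an SE of 0.769, the largest among the 13 members named by rank, and the flat later course is a mean over libraries that differ by several fold. VIT_04s0008g05640 fell nearly as far on this scale (-3.54 ± 0.385). It gave 4.66, 17.0 and 20.8 FPKM at 40 days and 0.122, 0.111 and 0.133 FPKM at 50 days. After that it was listed at 0 in 5 of 6 libraries, the exception being 0.0860 FPKM in 60-day replicate c. Its signal was thus all but lost by 50 days. Nothing is read from the closeness of the 50-day values, which lie near 0 where depth is unknown. The 40-day values spread widely, with a mean of 14.2 ± 8.44 FPKM (SD, n = 3).

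Some members of at least 20 FPKM at 40 days ended near 1 FPKM. VIT_18s0041g00390 had very unequal 40-day values of 4.06, 23.3 and 59.7 FPKM. It gave 1.56, 0.313 and 1.93 FPKM at 50 days and 0.187, 2.15 and 1.26 FPKM at 80 days, and its step of -3.19 carried an SE of 0.729. VIT_01s0011g00600 was far more even, at 24.6, 32.8 and 39.6 FPKM at 40 days and 3.36, 2.86 and 2.90 FPKM at 50 days. Its step was -3.02 ± 0.165, and it continued to 2.08, 1.52 and 2.28 FPKM at 60 days and 1.48, 1.64 and 1.75 FPKM at 80 days. No 80-day library of this gene model reached its lowest 50-day value. VIT_07s0005g04130, the other of the 2 flattest members, was flat because it was almost undetected. It gave 1.56, 3.83 and 9.66 FPKM at 40 days, no more than 0.122 FPKM in any 50- or 60-day library and 0 in all 80-day libraries.

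After 50 days the members' mean log2 level moved slightly down more often than up. The step from 50 to 60 days was below 0 in 42 members and above 0 in 16 (median -0.13), and the step from 60 to 80 days was below 0 in 41 and above in 17 (median -0.13). Both steps went down in 32 members and up in 7. The sum of the steps, from 50 to 80 days, had a median of -0.28 and ranged from -0.93 to 0.82. It stayed within 0.5 in 37 members, was below -0.5 in 16 and above 0.5 in 5. The median of this sum over all gene models tested was 0.006. With no minimum difference, 4 members were called lower at 80 than at 50 days (limma, adjusted p under 0.05), against 19.2% of all gene models tested, and 2 were called higher, against 21.4%. The rule bounds these changes, so no reading is made of the low counts.

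The largest downward drift was that of VIT_00s0353g00060. It stood at 3.49, 1.12 and 2.07 FPKM at 50 days, 0.840, 0.938 and 2.21 FPKM at 60 days and 0.652, 0.927 and 0.315 FPKM at 80 days, after 8.14, 12.4 and 12.6 FPKM at 40 days. Every 80-day library lay below every 50-day library. VIT_06s0004g05190 was the next, from 22.8, 40.1 and 31.6 FPKM at 40 days through 8.44, 4.83 and 5.35 FPKM at 50 days to 2.54, 5.48 and 2.18 FPKM at 80 days. Its 50- and 80-day libraries overlapped through 80-day replicate b.

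The opposite drift was led by VIT_09s0002g02440, which recovered part of its loss. It fell from 66.9, 129 and 88.8 FPKM at 40 days to 31.2, 19.9 and 26.7 FPKM at 50 days. It then gave 36.4, 33.8 and 31.8 FPKM at 60 days and 45.6, 49.7 and 42.1 FPKM at 80 days. The libraries of these 3 later ages did not overlap, and each later step (0.40 and 0.42) was inside the bound. Its difference between 80 and 40 days remained -0.99 on the log2 scale. The mean of VIT_01s0011g00830 moved the same way but was not called, and its libraries were unequal: after 11.5, 12.4 and 6.64 FPKM at 50 days it gave 33.4, 17.4 and 9.41 FPKM at 80 days, and 80-day replicate a lay within the 40-day values of 28.0, 44.7 and 38.2 FPKM. These were the only tested members not called lower at 80 than at 40 days, both because their difference was under 1.

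As ratios of FPKM, the later course varied more than on the log2(FPKM + 1) scale, most of all in weak members. The mean at 80 days lay between 0.5 and 2 times the 50-day mean in all 18 members that settled at 5 FPKM or more, with ratios of 0.616 to 1.97. Of the 40 members that settled lower, 21 ended under 0.5 times their 50-day mean, 17 of them in the class under 1 FPKM, where the median ratio was 0.318. In that class the median level per library was 0.896, 0.630 and 0.566 FPKM at 50 days and 0.244, 0.320 and 0.181 FPKM at 80 days, and the 50- and 80-day libraries did not overlap. The pseudocount of 1 compresses such changes: the class's median log2 change from 50 to 80 days was -0.44 with a pseudocount of 1 and -1.18 with 0.1, while the class of 20 FPKM or more gave 0.03 with either. With a pseudocount of 0.1 the rule kept 3 of 20 members under 1 FPKM, 8 of 20 at 1 to 5 FPKM, 9 of 12 at 5 to 20 FPKM and 6 of 6 at 20 FPKM or more. VIT_04s0023g01120, the member with the highest ratio (2.52; named after its values were seen), went from 1.44, 1.14 and 1.22 FPKM at 50 days to 3.67, 4.73 and 1.17 FPKM at 80 days, so the ratio rests on replicates a and b. The only member among the gene models labelled as new, Grape_newGene_30, gave 4.79, 3.64 and 8.92 FPKM at 40 days and exceeded 0.001 FPKM later only in 50-day replicate c, at 0.790 FPKM.

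**Figure D3:**
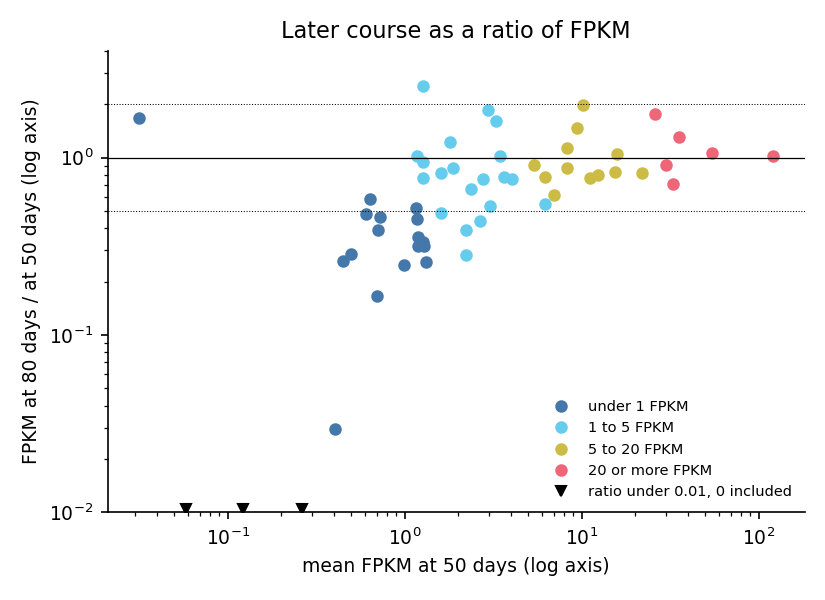
Mean FPKM at 50 days (x axis, log scale) against the ratio of the 80-day to the 50-day mean FPKM (y axis, log scale) for the 58 members, coloured by their mean FPKM from 50 to 80 days. Dotted lines mark ratios of 0.5 and 2, and triangles at the lower edge mark ratios under 0.01. The members of 5 FPKM or more lie between the dotted lines, and most of those under 1 FPKM lie below them.

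Libraries of the same age were not equal in these gene models. At 40 days, replicate a was the lowest of the 3 libraries in 40 of the 58 members and the highest in 3. Its level was a median 0.636 times the mean of replicates b and c, and under 0.5 times in 15 members. At 50 days replicate a was instead the highest library in 37 members. Both libraries thus lay nearest to the other age, and in 29 members both held. The same libraries stood apart among the other 296 gene models that fell early, where 40-day replicate a was lowest in 216 and 50-day replicate a highest in 179. Among all 10720 gene models with at least 5 FPKM at 40 days, 40-day replicate a was lowest in 37.8% and 50-day replicate a highest in 25.7%, and the median deviation of each from its age mean was -0.01. At 60 days replicate c was highest in 35 members and in 234 of the other 296, against 35.1% of the 10720. Without 60-day replicate c the members' median steps from 50 to 60 and from 60 to 80 days were -0.26 and -0.026. All libraries together gave -0.13 for both steps. The median SD between libraries at 40 days was 0.39 on the log2 scale in the members and 0.12 over those 10720 gene models. Without 40-day replicate a the rule selected 92 gene models, all 58 members among them, and without 50-day replicate a it selected 86, including 53 of the members. With both left out, a setting added after seeing the data, it selected 121, of which 54 are members, and the median step of the 58 members was -2.24. A rule applied to fewer libraries is also looser in its condition on overlap.

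Each library was also set beside gene models chosen from the other 11. These readings are not independent of the rule, because the age means and libraries they are set against helped to choose the gene models, and the sets differ in size and membership. They are given as a description. For 40-day replicate a, the 92 gene models chosen without it stood a median 1.38 above the 50-day mean on the log2 scale, where the libraries used had given 1.95. In 35 of the 92 the difference reached 1.5, and in 89 the library lay above every 50-day library. For 40-day replicates b and c the medians were 2.03 and 1.97, with 47 of 54 and 48 of 59 reaching 1.5. For 50-day replicates a, b and c the left-out library differed from the 40-day mean by a median of -1.60, -1.89 and -1.98. It lay below every 40-day library in 83 of 86, 57 of 58 and 55 of 55 gene models. The sets were chosen for a large fall without overlap in the other libraries, and no share over all gene models was taken. Nothing is therefore read from these counts of libraries without overlap, nor from the 89 of 92. The median difference was smaller than in the libraries used for both libraries lettered a. Leaving out a library that lies near the other age also admits gene models in which it lies there, so this is partly set by the choice.

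The 60- and 80-day libraries were read in the same way. In 60-day replicates a, b and c the left-out values were a median -0.31, -0.20 and 0.18 from the 50-day mean, and 38 of 53, 38 of 56 and 44 of 64 lay within 0.5. In 80-day replicates a, b and c the medians were -0.39, -0.17 and -0.38, and 31 of 60, 36 of 55 and 31 of 63 lay within 0.5. A single 60- or 80-day library was thus within 0.5 of the 50-day mean in 49.2% to 71.7% of the gene models. The bound on a single library from 50 to 80 days is stricter than the rule, which limits each interval separately.

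**Figure D4:**
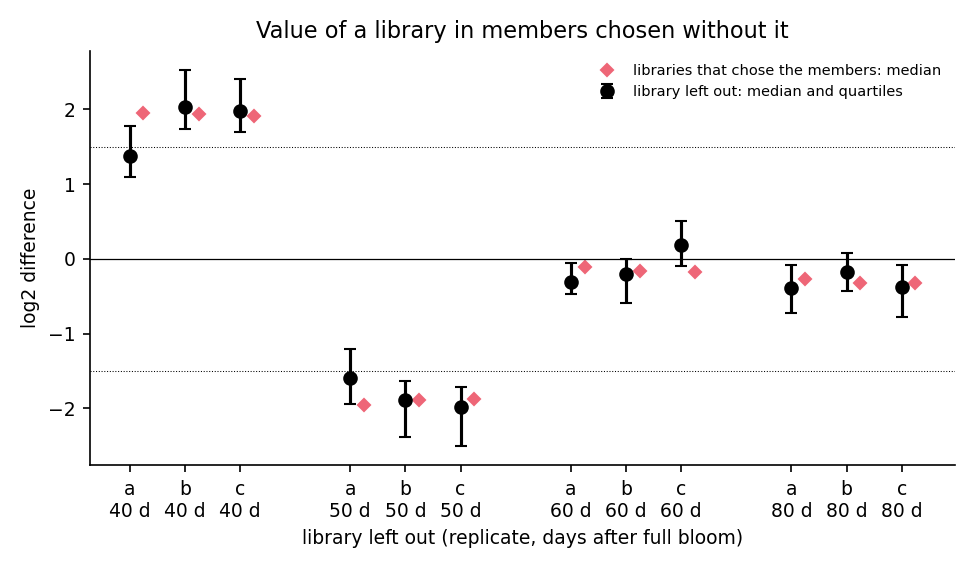
Log2 difference (y axis) of each library (x axis, replicate letter and days after full bloom) in the members chosen from the other 11 libraries, as median and quartiles (black), beside the median in the libraries that chose them (red diamonds). Differences are to the 50-day mean, except for 50-day libraries, which are set against the 40-day mean, and dotted lines mark 1.5 in either direction. The 40-day replicate a, at 1.38, is the left-out library that lies farthest from the value of the libraries used.

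With both later steps held within 0.5, a flat course was the exception among gene models that fell early. Of the 10720 gene models with at least 5 FPKM at 40 days, 375 fell by at least 1.5 by 50 days, 354 of them without overlap. Among the 354, the step from 50 to 60 days stayed within 0.5 in 141, and the next step too in the 58 members (16.4%). With a bound of 1 on both later steps, 188 of the 354 were flat, so the share depends on the bound. A further 229 (64.7%) went down by more than 0.5 in a later step, 29 (8.19%) rose back and 38 moved in both directions. The members started lower, at a median of 13.6 FPKM at 40 days against 33.5 in those that fell further and 20.2 in those that rose back. By 80 days the medians were 1.60, 1.30 and 12.8 FPKM. The first step was of like size in the 3 groups, with medians of -1.91, -2.05 and -2.14. These groups are defined by the rule, so their differences were not tested. The pseudocount of 1 compresses later changes of weak gene models, so those pass as flat more easily. Whether the scale bears on the lower start of the members was not tested.

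**Figure D5:**
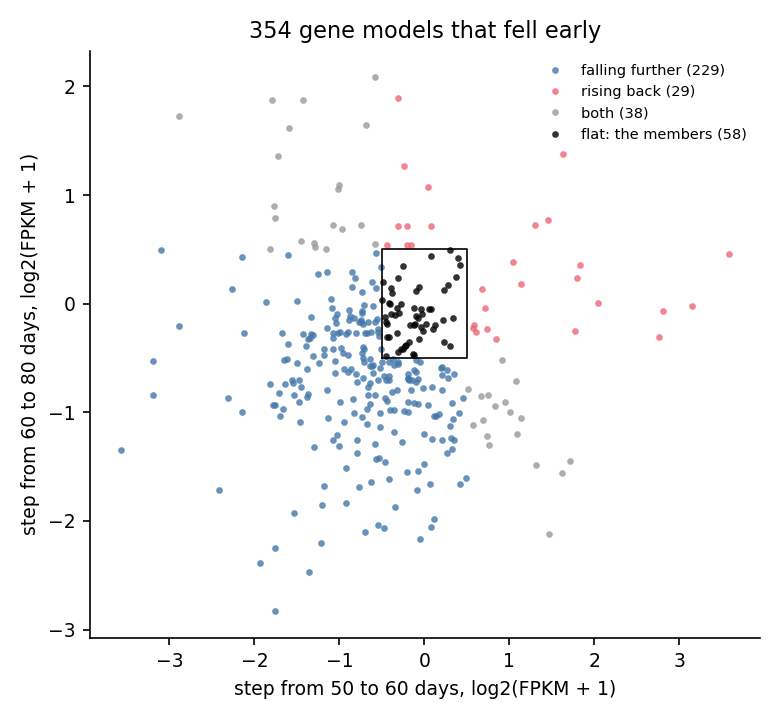
Step from 50 to 60 days (x axis) against the step from 60 to 80 days (y axis), both as differences of mean log2(FPKM + 1), for the 354 gene models that fell early without overlap. The square marks the bounds of 0.5 that enclose the 58 members. Most points outside it lie to the left or below, in the 229 gene models that fell further.

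The bound on the fall passed through a continuous range of values. Just inside it, VIT_16s0013g01110 had a step of -1.51 ± 0.280, from 5.55, 7.62 and 10.1 FPKM at 40 days to 3.90, 1.32 and 1.41 FPKM at 50 days. VIT_00s0207g00230 had a step of -1.54 ± 0.142, from 17.7, 20.5 and 21.6 FPKM to 5.78, 7.15 and 5.68 FPKM. Just outside it, with all other conditions met, lay VIT_13s0019g04210 at -1.499 (34.0, 64.4 and 49.4 FPKM to 18.5, 15.1 and 15.2 FPKM) and VIT_18s0001g02100 at -1.49. The gene models on either side of the bound differed by far less than their standard errors.

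The members were scattered over the identifiers. In VIT_ identifiers a first number from 1 to 19 stands for the chromosome, and 00, carried by 5 members, for sequence not placed on one. Members per chromosome ranged from none among the 307, 548 and 465 gene models of at least 5 FPKM on chromosomes 10, 13 and 17 to 9 of 788 on chromosome 18. The shares were 1.14% on chromosome 18, 1.18% on chromosome 4 and 1.33% on chromosome 9, where 0.541% of all such gene models were members, and were not tested. No member stood directly beside another in the order of identifiers. Among all 354 early fallers, 12 adjacent pairs occurred, and 3 of these held a member (named after their values were seen). VIT_05s0020g03980, from 16.3 to 1.60 FPKM between 40 and 50 days, stood beside VIT_05s0020g03970, from 379 to 58.3 FPKM. VIT_06s0004g05780, from 11.1 to 1.31 FPKM, stood beside VIT_06s0004g05770, from 19.8 to 1.96 FPKM. VIT_07s0104g01390, from 9.91 to 1.19 FPKM, stood beside VIT_07s0104g01400, from 25.9 to 1.49 FPKM. The pairs were drawn from gene models that fell early, so the shared fall follows from the choice. As no members stood side by side, each partner had to leave the bounds on the later steps. The number of adjacent pairs was not tested.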

How the data were processed

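Polyadenylated RNA of 12 fruit samples was sequenced as directional libraries, per the labels' protocols. The authors deposited 1 table of FPKM values for 22580 identifiers (21791 VIT_ identifiers and 789 labelled as new). Trimmomatic 0.36, FastQC, TopHat2, Cufflinks and edgeR are named in the submitters' processing notes without roles; the sources used here give no genome build, annotation or filters. Columns were matched to samples by library code. Depth is unknown: over 66 library pairs, ratios between values under 0.5 FPKM showed no steps of 1 read (the fullest bin of 0.005 held 0.459% to 2.43% of gene models), so no count test was run.

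The members, the rule and the lists were chosen with earlier results of these data known. Values were taken as log2(FPKM + 1), which understates changes of weak gene models. Differences and standard errors come from limma 3.58.1 (R 4.3.3) with trended prior variance, fitted to all 14579 gene models with at least 1 FPKM in at least 3 libraries and tested on simulated data. Members were named by rank: the 2 highest, steepest, flattest, lowest and highest at 80 days, most drifting in each direction, and nearest to the bound of the fall on either side. Planned lists by product name were not run, since no identifier carries one.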

Additional observations from a re-analysis of the deposited data

How the results depend on the processing

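Membership depended on the rule's limits. Against 58 members, 91 and 20 gene models were selected with at least 1 and 20 FPKM at 40 days, 147 and 24 with a fall of at least 1 and 2, and 188 and 19 with later steps within 1 and 0.25; a looser or stricter limit changes the count by construction. Leaving out 1 library gave 53 to 92, and leaving out both libraries lettered a at 40 and 50 days gave 121. Pseudocounts of 0.1 and 0.5 gave 41 and 50 gene models, with only 26 and 37 of the members; with 0.1, membership was lost in every class under 20 FPKM. Median-ratio scaling, quantile normalization and a table without each library's 10 most abundant gene models kept 54, 46 and 45 members. Removing them, which rescales the rest, raised the summed FPKM at the 4 ages to 2784, 683.6, 664.9 and 703.5. Over the left-out libraries these sums ranged from 1999 to 2428, 459.5 to 515.8, 478.7 to 518.6 and 484.7 to 525.2, and the median steps from -2.10 to -1.87, -0.260 to -0.098 and -0.177 to -0.026. With a mean of at least 5 FPKM over the libraries only 26 members were tested, with 26 calls between 40 and 50 days, and 24 between 40 and 80 days. Of all 10558 gene models tested in that setting, 784 and 2054 were called in either direction. Leaving out 1 library gave 55 to 57 and 53 to 56, against 1012 to 1334 and 2870 to 3190 of all 14579 gene models. From 50 to 80 days none was called, and the rule's bounds preclude a difference over 1 (limma). A pseudocount of 0.1 gave 11 calls and dropping the minimum difference 6, against 1814 and 5923 of all 14579 gene models. Leaving out 1 library gave 0 to 3 (3 without 80-day replicate b), against 1170 to 1415 of all. A replicate block on the letters gave 57 calls between 40 and 50 days, then 55 between 40 and 80 days, and changed no call. Of all 14579 gene models, 1147 and 3057 were called with this block. Correlations of deviations between same-letter libraries ranged from -0.298 to 0.249, with a median of 0.019, and 4 of 18 pairs exceeded 0.1. Different-letter pairs ranged from -0.247 to 0.408, with a median of -0.03, and 7 of 36 exceeded 0.1. The labels do not say whether a letter marks a shared source, and these values cannot decide it. For the 15 gene models named by rank, the 2 outside the bound included, only the step from 40 to 50 days was varied. All 311 values of that step kept their direction and call, which the choice by size nearly fixes. The later steps of these gene models were not checked in this way. Depth is unknown, so counting error below 1 FPKM cannot be separated from other spread.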

Other observations

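The 104 gene models whose mean log2 level was at least 1.5 higher at 50 than at 40 days without overlap, with at least 5 FPKM at 50 days, showed the 40-day libraries in the reverse order. Replicate a was the highest of the 3 in 72 of them and the lowest in 9, with a median deviation of 0.31 from the age mean, against -0.38 in the 58 members. Replicate c was the lowest in 67 of the 104. In gene models that fell early and in those that rose early, 40-day replicate a therefore lay nearest to the 50-day level. Both sets were chosen on values that include this library, and the difference was not tested.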
